A study of Homo sapiens with 30 samples.

Results

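UBE2S, MAP2K7, P4HB, UBE2V2, SFR1, LOC100505841, LONP1 and RNF126 are 8 of the 26475 genes in a table of run-on counts. They were taken by symbol because each had many counts in 1 library, repeat 3 of the hNABP1 KO group with NTP, and few in the other 17. Their counts in that library therefore chose them and are given below as a description. Fits below that include this library use the counts that chose the genes and are no support. All 8 genes had more raw counts in that library than in any other. For CPM (counts divided by the library's total and scaled alike in every library) this held in 7. LONP1 was higher on the CPM scale in 2 other libraries. Its counts in the other 17 were not few, 221 together against 200 in that library.

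The series holds 30 libraries of HT1080, a human fibrosarcoma cell line with mesenchymal features, at passages 10 to 15. Nuclei of WT, of hNABP2 KO and of hNABP1 KO cells were run on with NTP or with no NTP, 3 libraries in each of the 6 groups; in this assay (GRO-seq) polymerases at work add a bromo-nucleotide to their transcripts and the labelled RNA is pulled down. A further 4 libraries are ChIP-seq of WT cells (2 with anti-hNABP2, 2 with IgG), and 8 are DRIP-seq libraries (RNA:DNA hybrids; WT or hNABP2 KO, with or without RNase H, 2 each). The cells received no treatment, and the sources used here do not give how the knockouts were made, how many clones they stand for or how far the 3 repeats are independent, so n, SD and p-values count libraries.

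hNABP1 (hSSB2) and hNABP2 (hSSB1) are related proteins that bind single-stranded DNA and take part, with INTS3 and INIP, in the SOSS complex, which acts in the repair of DNA breaks. A run-on signal normally marks genes on which RNA polymerase is engaged, and it gathers near gene starts. The 8 genes have no single pathway in common. UBE2S, UBE2V2 and RNF126 act in ubiquitin transfer, MAP2K7 is a kinase of the JNK cascade, SFR1 acts in DNA repair, P4HB folds proteins in the endoplasmic reticulum, LONP1 is a protease of the mitochondrial matrix, and LOC100505841 carries the RefSeq symbol ZNF475.

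The library that chose these genes, called the high library from here on, differed from others in several ways. Its 115528 counts were close to the 115923 of hNABP2 KO repeat 3 with NTP and below the 164357 of WT repeat 3 with NTP, while the others held 5272 to 79429. Ribosomal RNA genes RNA45S5 and RNA28S5 took 7.08% of its counts, against 0.674% and 0.900% in the repeat 3 libraries of WT and hNABP2 KO with NTP, a share within the 0.272% to 13.1% of all other libraries. Its deposited peak list held 9965 peaks, and the other 8 run-on lists held 94 to 518. The target genes did not check the labels at this depth: NABP1 had 0, 1 and 18 counts in the libraries labelled hNABP1 KO with NTP against 1, 0 and 19 in WT, and NABP2 had 4, 3 and 15 in those labelled hNABP2 KO against 4, 0 and 8. Genotypes below are therefore those of the labels. Of markers of the line, 9 of 10 mesenchymal genes had a count in the high library (COL3A1 was at 0), with a summed level of 1437 CPM against 1454 to 32310 in the other libraries with NTP. Summed levels of 6 epithelial, 5 leukocyte and 5 neural markers there were 165, 95.2 and 286 CPM, against 195 to 2921, 0 to 167 and 0 to 460 in the other libraries with NTP. Of their defining markers EPCAM, PTPRC, CD3E and SOX2 were at 0 in the high library, and LYZ in all 18. The part that these features of the library play in the values below was not tested. The files do not settle whether this library measures the same thing as the other run-on libraries, so its counts and peaks are called run-on counts and peaks after its label only.

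The stretches before the starts of the genes are shown first, since 7 of the 8 genes had a peak of the high library over or next to their start. The sequences are RefSeq's, build GRCh38.p14, and cover the 250 bases before the gene start, written 5′ to 3′ on the gene's strand. UBE2S, MAP2K7, P4HB and SFR1 had the highest peaks of the 8, LONP1 shares the longest matching motif with MAP2K7, and LOC100505841 is the gene with no peak. The positions are chr19:55407789-55408038 on the minus strand for UBE2S, chr19:7903627-7903876 on the plus strand for MAP2K7, chr17:81860536-81860785 on the minus strand for P4HB, chr10:104121858-104122107 on the plus strand for SFR1, chr19:5720453-5720702 on the minus strand for LONP1 and chr5:122159926-122160175 on the plus strand for LOC100505841. Capitals mark every match, on either strand, to the motifs named after the sequences.
UBE2S: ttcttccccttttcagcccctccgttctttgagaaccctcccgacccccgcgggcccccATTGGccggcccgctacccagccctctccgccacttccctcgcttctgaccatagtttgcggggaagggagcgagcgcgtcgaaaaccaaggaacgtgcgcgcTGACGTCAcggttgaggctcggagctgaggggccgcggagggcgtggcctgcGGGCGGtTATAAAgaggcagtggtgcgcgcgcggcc
MAP2K7: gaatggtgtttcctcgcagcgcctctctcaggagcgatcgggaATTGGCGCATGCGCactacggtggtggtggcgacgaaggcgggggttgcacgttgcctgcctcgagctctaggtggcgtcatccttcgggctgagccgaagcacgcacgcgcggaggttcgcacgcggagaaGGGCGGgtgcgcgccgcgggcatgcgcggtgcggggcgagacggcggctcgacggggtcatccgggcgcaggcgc
P4HB: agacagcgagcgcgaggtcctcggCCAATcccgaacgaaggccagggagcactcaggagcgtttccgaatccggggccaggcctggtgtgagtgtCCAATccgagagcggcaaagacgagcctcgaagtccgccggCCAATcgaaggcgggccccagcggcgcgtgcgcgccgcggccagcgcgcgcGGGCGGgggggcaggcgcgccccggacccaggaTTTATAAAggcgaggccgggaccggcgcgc
SFR1: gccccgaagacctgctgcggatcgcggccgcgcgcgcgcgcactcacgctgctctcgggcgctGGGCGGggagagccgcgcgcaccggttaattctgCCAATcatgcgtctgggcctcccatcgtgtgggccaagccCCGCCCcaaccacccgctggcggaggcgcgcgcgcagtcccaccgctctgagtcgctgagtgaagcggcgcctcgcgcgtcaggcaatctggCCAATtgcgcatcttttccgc
LONP1: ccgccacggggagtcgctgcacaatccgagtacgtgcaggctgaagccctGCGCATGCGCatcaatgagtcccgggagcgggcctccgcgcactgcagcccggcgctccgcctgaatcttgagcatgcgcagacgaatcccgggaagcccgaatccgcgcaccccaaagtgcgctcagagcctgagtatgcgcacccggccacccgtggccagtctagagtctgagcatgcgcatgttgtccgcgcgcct
LOC100505841: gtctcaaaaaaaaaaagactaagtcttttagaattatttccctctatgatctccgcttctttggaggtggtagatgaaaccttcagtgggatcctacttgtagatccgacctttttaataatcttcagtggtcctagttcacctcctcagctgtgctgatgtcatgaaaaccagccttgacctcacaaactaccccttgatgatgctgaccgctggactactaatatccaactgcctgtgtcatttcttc

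The 7 motifs were searched on both strands from 250 bases before to 50 after the start, in the 7 of the 8 genes with an entry and in all 35116 such windows. The GC box of SP and KLF factors (GGGCGG) was present in UBE2S, MAP2K7, P4HB, SFR1 and RNF126 and in 45.0% of all windows. RNF126 held 5 copies, all before its start. The NFY element (CCAAT) was present in UBE2S, MAP2K7, P4HB and SFR1 and in 34.6% of all windows, with 3 copies in P4HB. An NRF1 element of 10 bases, the longer run of capitals in MAP2K7 and the only one in LONP1, was present at -203 and -200 in these genes and in 1.24% of all windows. In MAP2K7 it shares its first base with the NFY match on the other strand. The TATA box (TATAAA) was present in UBE2S at -29 and in P4HB at -30 and -28, where matches on the opposite strands overlap, and in 11.5% of all windows. TGACGTCA, the cyclic AMP response element, was present in UBE2S at -88 and in 1.85% of all windows. The ETS element CCGGAAGT (4.14% of all windows) and a YY1 element of 11 bases (0.849%) were in none of the 7 genes, and LOC100505841 matched none of the 7 motifs. These matches describe letters in the window and nothing about binding.

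G and C made up 67.6% of the 250 bases of UBE2S, 70.8% of MAP2K7, 72.4% of P4HB, 71.2% of SFR1, 66.8% of LONP1 and 78.8% of RNF126. The median over all 35116 windows was 58.0%, so these 6 genes lay above it. LOC100505841 lay below it at 42.4%, with 3 CpG dinucleotides against 28 to 38 in the other 6 and a median of 11.

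Of the ubiquitin genes, UBE2S, an E2 enzyme that lengthens ubiquitin chains on substrates of the anaphase-promoting complex, lies at chr19:55399745-55407788. With NTP it had 0, 0 and 10 counts in WT repeats 1, 2 and 3, 0, 1 and 11 in hNABP2 KO and 1, 0 and 202 in hNABP1 KO. With no NTP it had 1, 0 and 0 counts in WT, 0, 0 and 18 in hNABP2 KO and 0 in each hNABP1 KO library. The high library thus held 82.8% of its 244 counts, and 92.9% of the remaining 42 lay in other repeat 3 libraries. In every group repeat 3 was the deepest library (19247 to 164357 counts, against 5272 to 19581 in repeats 1 and 2). As CPM the hNABP1 KO group with NTP averaged 613 ± 985 (SD, n = 3) against 20.3 ± 35.1 in WT and 82.3 ± 76.8 in hNABP2 KO, an SD above the mean because 1 library carried the group.

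UBE2V2, an E2-like protein without catalytic activity that works with UBE2N, lies at chr8:47997437-48064708. It had 0, 0 and 12 counts with NTP in WT, 0, 0 and 4 in hNABP2 KO and 2, 1 and 111 in hNABP1 KO. With no NTP it had 0, 0 and 2, then 0, 0 and 6, then 0, 0 and 1 counts in the same order of groups. UBE2V2 was the 1 gene of the 8 whose CPM in all 3 hNABP1 KO libraries with NTP (180, 132 and 961) lay above those of all 3 WT libraries. The lower 2 of these rest on 2 and 1 counts. Over all 13447 genes with 10 or more counts, 2.03% had groups that did not overlap in either direction. Between hNABP2 KO and WT, 0 of the 8 genes and 2.07% of all had groups that did not overlap. The genes were chosen on this contrast, so nothing is read from the count of 1 in 8.

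RNF126, an E3 ubiquitin ligase that handles mislocalized proteins together with BAG6, lies at chr19:647526-663214. It had 0, 0 and 13 counts with NTP in WT, 0, 0 and 1 in hNABP2 KO and 0, 0 and 45 in hNABP1 KO, and with no NTP 1, 6 and 1 counts in the repeat 3 libraries of the 3 genotypes. All 67 of its counts lay in repeat 3 libraries, the deepest of each group, and its 45 counts in the high library were the lowest of the 8 genes.

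MAP2K7, the kinase that activates JNK, lies at chr19:7903877-7914478. With NTP it had 0, 0 and 17 counts in WT, 0, 1 and 15 in hNABP2 KO and 1, 0 and 278 in hNABP1 KO, and with no NTP 0 in each WT library, 0, 2 and 5 in hNABP2 KO and 0, 0 and 5 in hNABP1 KO. Its 278 counts ranked 3 among all genes of the high library, which held 85.8% of its counts. The group with NTP averaged 832 ± 1364 CPM in hNABP1 KO (SD, n = 3), 34.5 ± 59.7 in WT and 93.8 ± 82.0 in hNABP2 KO.

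SFR1, a partner of SWI5 in DNA repair, lies at chr10:104120166-104126383. Besides 59 counts in the high library it had 4 in WT repeat 3 and 3 in hNABP2 KO repeat 3 with NTP and 2 in hNABP2 KO repeat 3 with no NTP. The remaining 14 libraries were at 0, and the high library held 86.8% of its counts.

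P4HB, a protein disulfide isomerase and a subunit of collagen prolyl hydroxylase, lies at chr17:81843166-81860535. It had 1, 0 and 16 counts with NTP in WT, 2, 0 and 10 in hNABP2 KO and 0, 0 and 238 in hNABP1 KO. With no NTP it had 4, 0 and 5 in WT, 2, 1 and 28 in hNABP2 KO and 2, 2 and 0 in hNABP1 KO. The high library held 76.5% of its 311 counts, and the repeat of the same genotype and number with no NTP held none. Group means with NTP were 687 ± 1189 CPM in hNABP1 KO (SD, n = 3), 60.3 ± 52.7 in WT and 62.8 ± 55.0 in hNABP2 KO.

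LONP1, which degrades damaged proteins in the mitochondrial matrix, lies at chr19:5691834-5720452 and was the 1 gene of the 8 with a count in all 18 libraries. It had 3, 7 and 40 counts with NTP in WT, 5, 19 and 49 in hNABP2 KO and 3, 15 and 200 in hNABP1 KO, and with no NTP 2, 7 and 12, then 3, 6 and 23, then 3, 8 and 16. Scaled to the library totals, its highest values lay in repeat 2: hNABP2 KO repeat 2 with NTP lay at 2887 CPM and hNABP1 KO repeat 2 at 1986, above the 1731 of the high library. The high library held 47.5% of its counts, the lowest share of the 8.

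LOC100505841 was the most exclusive to the high library. It is matched through its gene ID to ZNF475 at chr5:122160176-122182658. It had 222 counts there, 95.3% of its 233. The other 11 were 1 in WT repeat 3 and 6 in hNABP2 KO repeat 3 with NTP, 1 in WT repeat 2, 2 in hNABP2 KO repeat 2 and 1 in hNABP2 KO repeat 3 with no NTP. The remaining 12 libraries were at 0.

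**Figure D1:**
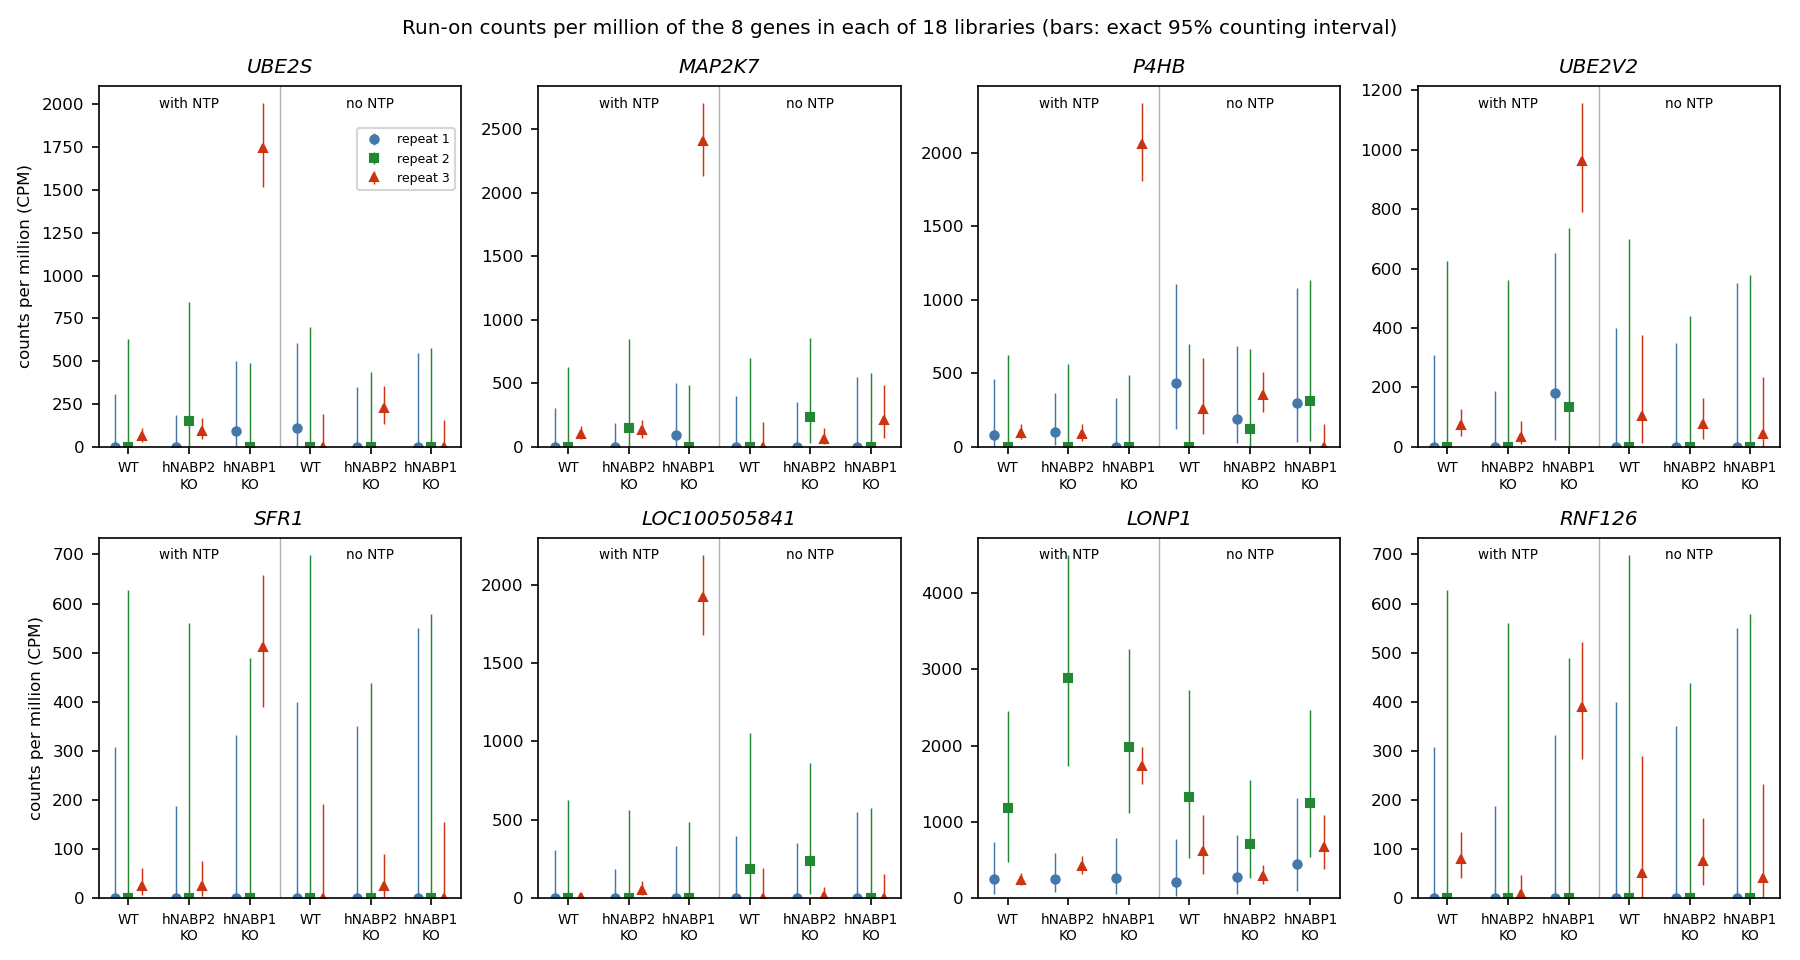
CPM of each of the 8 genes (vertical axis, linear, own scale per gene) in the 18 run-on libraries, by genotype with NTP (left) and with no NTP (right); colour and shape give the repeat and bars are exact 95% intervals that cover counting error only. In 7 panels the red triangle of hNABP1 KO with NTP is the highest point, from 390 CPM for RNF126 to 2406 for MAP2K7, and in the LONP1 panel 2 green squares of repeat 2 lie above it.

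Summed, the 8 genes held 1355 counts or 1.17% of the high library, against 0.0334% to 0.319% of the other 17. Without LONP1 the 7 other genes held 0.9998% of it, against 0% to 0.0831% elsewhere. The highest of the others was hNABP2 KO repeat 3 with no NTP (66 counts of 79429). All 8 genes were detected in 4 libraries, the 3 of repeat 3 with NTP and that one, whereas 1 to 4 of them were detected in each of the remaining 14. In libraries of 5272 to 19581 counts a gene with no count could hold up to 153 to 569 CPM (3 counts), below the 961 to 2406 CPM that UBE2S, MAP2K7, P4HB, UBE2V2 and LOC100505841 had in the high library. For SFR1 (511 CPM) and RNF126 (390 CPM) that limit was above their level in the high library in at least 1 of these libraries, so an equal level there was not excluded by depth.

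**Figure D2:**
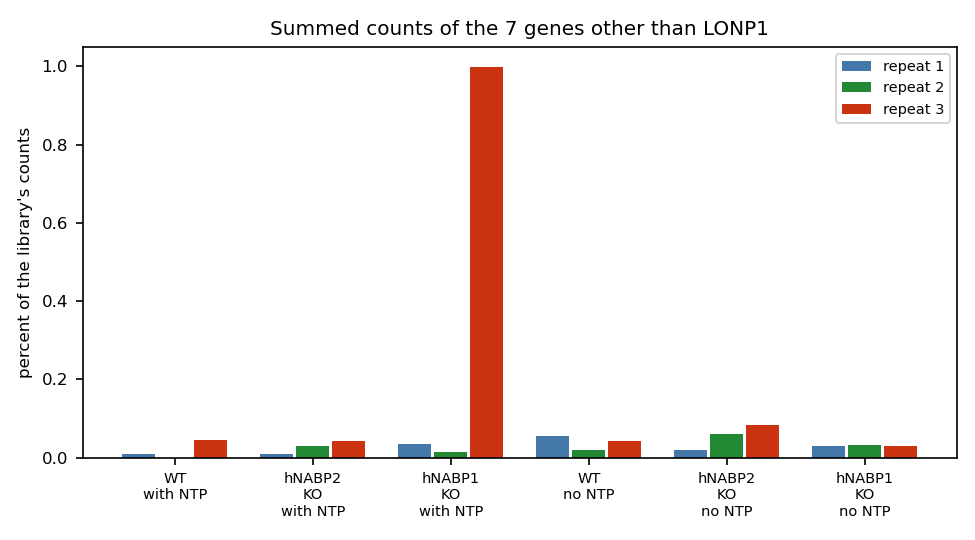
Summed counts of the 7 genes other than LONP1 as a percent of each library's counts (vertical axis, from 0), by group on the horizontal axis and by repeat in colour, 1 library per bar. The bar of hNABP1 KO repeat 3 with NTP reaches 0.9998%, and no other bar passes 0.0831%.

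Within the repeat 3 libraries with NTP, the deepest run-on libraries, the high library exceeded both others in all 8 genes. Against WT the CPM ratio was 28.7 for UBE2S (exact 95% counting interval 15.3 to 60.8), 23.3 for MAP2K7 (14.3 to 40.5) and 21.2 for P4HB (12.8 to 37.6). It was 21.0 for SFR1 (7.78 to 79.5), 13.2 for UBE2V2 (7.24 to 26.2), 7.11 for LONP1 (5.04 to 10.3) and 4.93 for RNF126 (2.61 to 9.95). For LOC100505841, with 1 count in WT, the ratio was 316 with an interval of 56.1 to 12530.

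Against hNABP2 KO repeat 3 the order was another one. RNF126, with 1 count there, had a ratio of 45.2 (7.70 to 1823), LOC100505841 37.1 (16.8 to 102), UBE2V2 27.8 (10.6 to 104) and P4HB 23.9 (12.8 to 50.5). SFR1 lay at 19.7 (6.43 to 98.4), MAP2K7 at 18.6 (11.1 to 33.7), UBE2S at 18.4 (10.1 to 37.5) and LONP1 at 4.10 (2.98 to 5.72). Both ratios share the high library, and each compares 1 library with 1, so there is no replicate check. Of 12779 genes with 10 or more counts in the 3 libraries, 213 (1.67%) were at least 4 times as high in the high library as in both others. All 8 genes are among them, as they were chosen for this contrast, with LONP1 (4.10) and RNF126 (4.93) nearest the line.

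**Figure D3:**
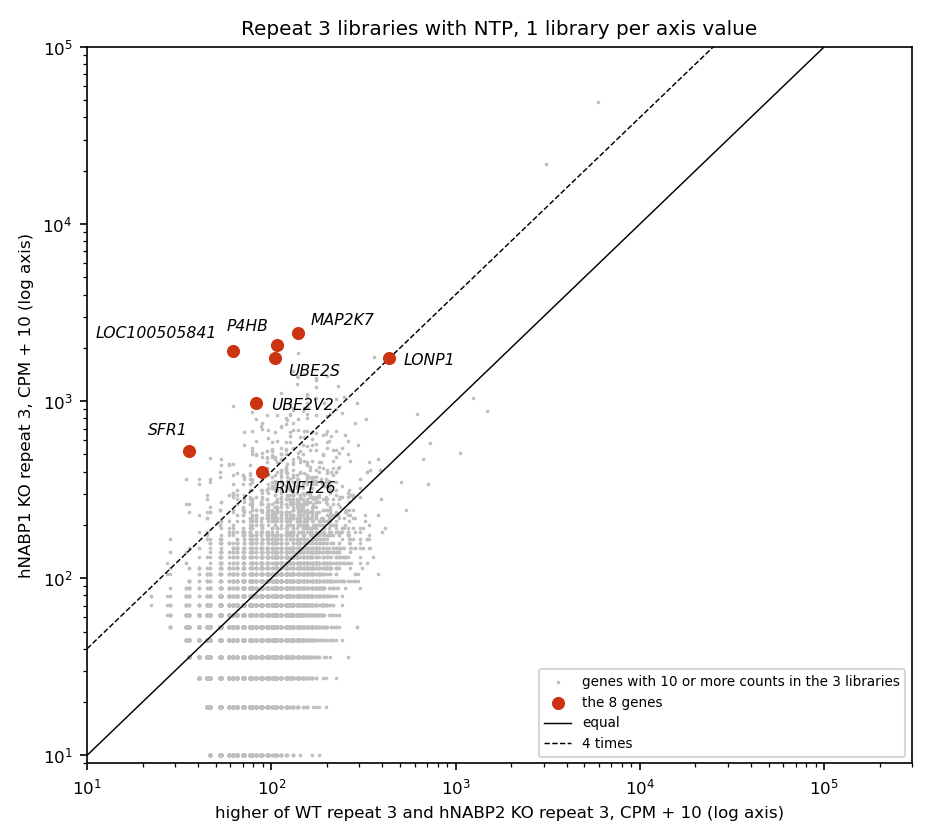
CPM plus 10 in hNABP1 KO repeat 3 (vertical, log axis) against the higher of WT and hNABP2 KO repeat 3 (horizontal, log axis), all with NTP, 1 point per gene with 10 or more counts in the 3 libraries. The 8 genes in red lie at or above the dashed line of 4 times; LOC100505841, P4HB, MAP2K7 and UBE2S lie farthest from the bulk of the grey points, and LONP1 and RNF126 lie on the line.

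The libraries with no NTP, which lack the added nucleotides, give the background of the assay. In repeat 3 of hNABP1 KO with no NTP (23865 counts), UBE2S, P4HB, SFR1 and LOC100505841 had 0 counts. Their CPM with NTP were 13.9, 16.4, 4.06 and 15.3 times the floor of 3 counts in that library, respectively. These are no lower limits, since they leave out counting error in the high library. The exact 95% upper limit for 0 counts in that library was 155 CPM, above the floor of 126. MAP2K7 had 5 counts and a ratio of 11.5 (4.86 to 35.6), and LONP1 had 16 counts and a ratio of 2.58 (1.55 to 4.61). UBE2V2 and RNF126 had 1 count each, with ratios of 22.9 (4.03 to 914) and 9.30 (1.58 to 375). In the other genotypes the repeat 3 libraries with NTP were not the higher ones throughout. In WT the CPM of P4HB was 97.3 with NTP and 260 with no NTP, that of LONP1 243 and 623, and UBE2V2, with 12 counts against 2, was also lower with NTP for the depth. In hNABP2 KO 4 genes were lower with NTP: UBE2S (94.9 against 227 CPM), P4HB (86.3 against 352), UBE2V2 (34.5 against 75.5) and RNF126 (8.63 against 75.5).

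Across the 3 repeats, the model of the 9 libraries with NTP could be applied to few of these genes. Of 129 genes that passed edgeR's filter on low counts, LONP1 was the 1 member. In hNABP1 KO against WT it lay at 2.39 on the log2 scale, with an SE of 1.27 and an adjusted p = 0.9997 in edgeR's quasi-likelihood test with Benjamini-Hochberg adjustment. In hNABP2 KO against WT it lay at 0.65, with an SE of 1.24 and edgeR's adjusted p = 0.990. No gene was called in either contrast by edgeR (0% of 129, with 1 and 0 genes at an unadjusted p under 0.05), DESeq2 or limma (2 and 1 genes unadjusted by each). Without the high library LONP1 turned to -0.30 in hNABP1 KO against WT, while with 10 or more counts and the repeat numbers as a block it was 0.56 (SE 0.65). Both contrasts share the WT libraries.

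With the filter lowered to 10 or more counts and the repeat numbers kept as a block, 16 of 13447 genes (0.119%) were called higher in hNABP1 KO. These included UBE2S, MAP2K7, P4HB, UBE2V2, SFR1 and LOC100505841, with log2 fold changes of 4.12 (P4HB) to 8.12 (LOC100505841), but neither LONP1 (2.09) nor RNF126 (2.66). The rule used this contrast, so the calls describe how the genes were chosen. With the same filter and no block 0 genes were called by edgeR (163 at an unadjusted p under 0.05), and with the block but without the high library, or without WT repeat 3, 0 were called (60 and 39 unadjusted). Without the high library the blocked fit says little of single genes: RNF126 then had no counts in the pairs left, and P4HB 1 count in WT against 0.

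For the effect of NTP within hNABP1 KO, LONP1 had a value of 3.07 on the log2 scale (adjusted p = 0.959 with edgeR's quasi-likelihood test, SE 1.13) among 211 genes, none of which was called (0%; 6 unadjusted, 7 by DESeq2 and 6 by limma). With the replicate block 5 of 211 genes (2.37%) were called higher, LONP1 among them at 2.52 with an SE of 0.69 (edgeR's adjusted p = 0.0490). With the block and 10 or more counts 1 of 14907 genes (0.00671%) was called lower and none higher, with 0 of the 8 called; LONP1 lay at 1.22. Without the high library the value of LONP1 was 0.39. The high library is 1 of the 3 with NTP in this contrast as well. Its counts chose the genes, so the call of LONP1 is a description and no support.

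Peaks of the high library were read from the deposited list, whose fold is the authors' value of the summit over the background. UBE2S had the highest fold of all 9965 peaks, 128 at chr19:55407746-55408435, with a -log10 q of 461. SFR1 ranked 3 (108, chr10:104121733-104122161), P4HB 4 (97.7, chr17:81860228-81861200) and MAP2K7 5 (97.2, chr19:7903541-7903951). LONP1 ranked 56 (61.8, chr19:5720139-5720639), UBE2V2 131 (43.5, chr8:48008323-48008714) and RNF126 509 (23.9, chr19:663025-663420), against a median fold of 4.73 in the list. Each of the 7 genes had 1 peak within the gene or 1 kb of it. At least 1 such peak was found for 30.8% of 26251 genes with a RefSeq position. Among the genes with 50 or more counts in the high library, which leave out RNF126, it was 6 of 7 against 92.7% of the 165.

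LOC100505841 had no peak: the nearest lay 198192 bp away. It is the gene with the fifth highest count of the high library, and the sources used here do not say where the reads behind its 222 counts lie. Of the other run-on lists, 1 held a peak at 1 of the genes, hNABP1 KO repeat 1 at SFR1 (chr10:104121235-104121677, fold 4.87), which lies upstream of the peak of the high library.

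**Figure D4:**
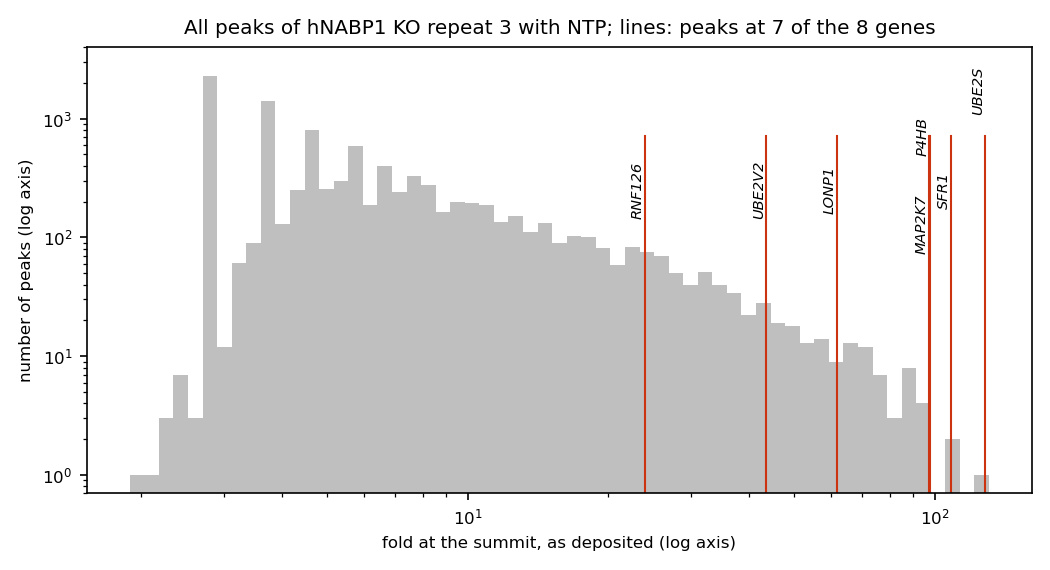
Number of peaks (vertical, log axis) by deposited fold at the summit (horizontal, log axis) for all 9965 peaks of hNABP1 KO repeat 3 with NTP; red lines mark the peaks at 7 of the genes. UBE2S is the highest peak of the list at 128, SFR1, P4HB and MAP2K7 lie between 97.2 and 108, and RNF126 at 23.9 lies nearest the bulk.

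The peaks sat across the gene starts, and in most of these genes more of the peak lay before the start than after it. For UBE2S 93.8% of the peak was upstream and the summit lay at -195 from the start, over the sequence printed above, all of which is inside the peak. The peaks of SFR1 (87.4% upstream, summit -132), MAP2K7 (81.8%, -150) and P4HB (68.4%, -195) also cover their printed stretches whole. RNF126 was 52.0% upstream (summit -119). In LONP1 (37.3% upstream) and UBE2V2 (23.5%) the summit lay after the start, at 95 and 72. For UBE2V2 the start is that of the deposited annotation of a ChIP peak (chr8:48008415). For SFR1 the RefSeq start nearest the summit was used (chr10:104122108). Both lie inside the gene spans given above, which begin at 47997437 and 104120166. That these 2 peaks lie across a start therefore depends in part on the start chosen. LONP1 also has 2 RefSeq starts, and the start nearest the run-on summit was used (chr19:5720452). From its other start, farther into the gene, this summit and most of the LONP1 peak would lie upstream.

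None of the counted genes next to or overlapping the 8 was 4 times as high there as in both other repeat 3 libraries with NTP. RPL28, a ribosomal protein gene that overlaps UBE2S, had 5 counts in the high library against 24 in WT and 17 in hNABP2 KO. RPL36, which overlaps LONP1, had 8 against 10 and 12, and CATSPERD, 185 bp beyond the start of LONP1, had 1 against 9 and 8. TGFBR3L next to MAP2K7 had 8 against 9 and 2, CFAP43 next to SFR1 6 against 15 and 15, and FSTL3, 13178 bp beyond RNF126, 22 against 15 and 12. The sources used here do not say how reads were assigned to overlapping genes, to strands and to near-identical copies, such as UBE2V1 for UBE2V2.

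The anti-hNABP2 ChIP of WT cells was no part of the choice. By the deposited annotation, which calls a peak within 1 kb of a transcript start a promoter peak, 7 of the 8 genes had one in repeat 1, all but LOC100505841. The share was 28.7% over all 26251 genes and 77% over the 165 genes with 50 or more counts in the high library; among the latter, 6 of 7 of these genes had one, a share near that background. In repeat 2, P4HB, UBE2V2 and RNF126 had a promoter peak, 3 of 8 against 9.16% of all genes. Among the genes with 50 or more counts, which leave out RNF126, it was 2 of 7 against 23.6% of the 165. At a -log10 q of 5 or more none of these 3 remained in repeat 2, and 6 of the 8 genes kept a promoter peak in repeat 1, without SFR1. Peaks in both repeats were found for the same 3 genes, against 7.83% of all genes. No DRIP list held a peak at any of the 8.

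The ChIP peaks were of ordinary height but for UBE2S, which was high, and SFR1, which was low in repeat 1. In repeat 1 its fold of 9.64 (chr19:55407358-55408201) ranked 57 of 10055 annotated peaks. LONP1 followed with 4.37, P4HB with 4.0, UBE2V2 with 3.71, RNF126 with 3.58 and MAP2K7 with 3.06, around the median of 3.16 for promoter peaks. SFR1 lay below it with 2.23, rank 9320 of 10055, and a -log10 q of 4.01. The order thus differs from that of the run-on peaks, where SFR1 and MAP2K7 were near the top. In repeat 2 the folds of UBE2V2 (5.54), P4HB (4.82) and RNF126 (4.35) lay below the promoter median of 5.87. P4HB had a further promoter peak in repeat 1 with its summit at -652 (fold 2.44), and LONP1 one near the end of the gene, annotated to a short transcript (chr19:5693368-5693591, fold 4.04).

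All 7 run-on peaks at these genes overlapped a ChIP repeat 1 peak by at least 1 bp, as did 47.1% of all 9965 peaks, and 3 overlapped one of repeat 2, as did 15.4%. The summits did not coincide. Against ChIP repeat 1 they were 61 bp apart at UBE2V2 and 76 bp at SFR1, and 191 to 266 bp apart at MAP2K7, LONP1, RNF126, UBE2S and P4HB. At UBE2S, MAP2K7 and P4HB the run-on summit lay upstream of the start (-195, -150 and -195) and the ChIP repeat 1 summit downstream (34, 41 and 71). At SFR1 both lay upstream (-132 and -208). In ChIP repeat 2 the summit of P4HB lay upstream (-29) and those of UBE2V2 and RNF126 downstream (207 and 128). With at least 50% of the run-on peak covered, 4 peaks overlapped repeat 1 and 1 repeat 2.

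**Figure D5:**
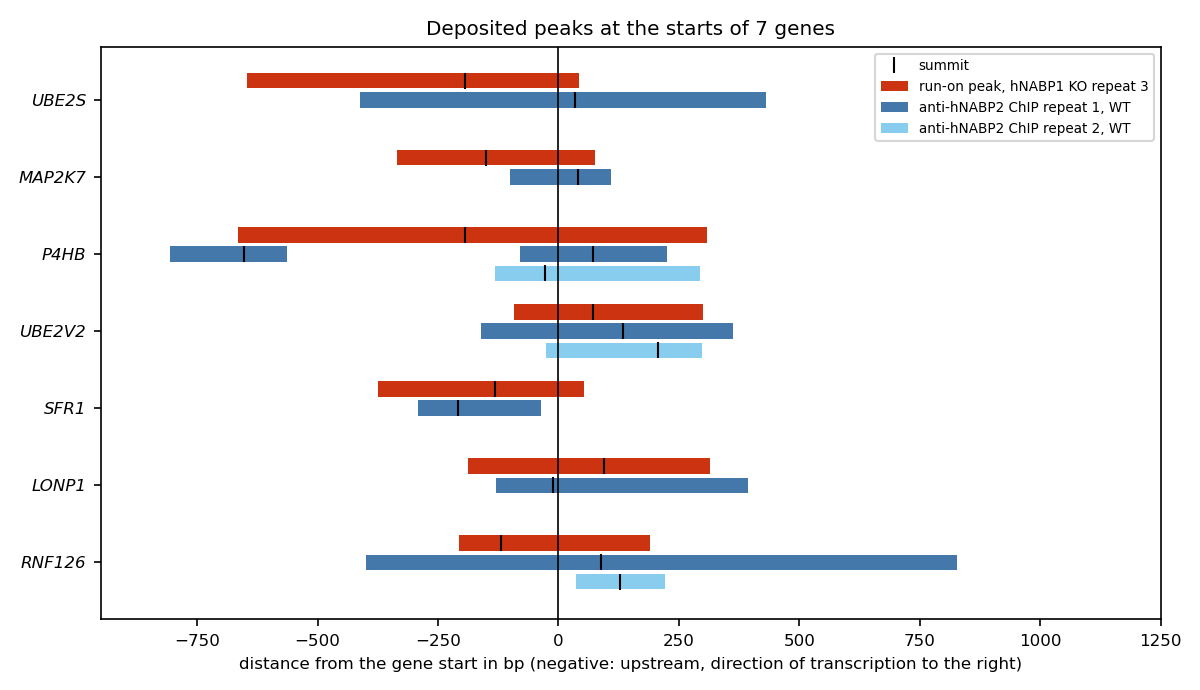
Deposited peaks at the starts of 7 genes, as distance from the gene start in bp (horizontal axis, transcription to the right), with the run-on peak of hNABP1 KO repeat 3 with NTP in red, the anti-hNABP2 ChIP peaks of WT cells in dark blue (repeat 1) and light blue (repeat 2), and black ticks at the summits. The red summits of UBE2S, MAP2K7, P4HB, SFR1 and RNF126 lie left of the start, and those of UBE2V2 and LONP1 right of it. For LONP1 the dark blue peak is drawn from another RefSeq start than the red one, so their places cannot be compared here. On the chromosome these LONP1 peaks overlap by 138 bp, with summits 199 bp apart.

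Most other genes of the same pathways were not 4 times as high in the high library as in both other repeat 3 libraries with NTP. Ratios below are log2 of CPM plus 10 between the high library and WT repeat 3 with NTP, for genes with 10 or more counts in the 3 repeat 3 libraries, with the count of genes at least 4 times as high as in both others. The median over all 12779 genes was -0.41, and that of every list given here lay above it. Of 29 other ubiquitin-conjugating enzymes (median -0.02) none was 4 times as high, and UBE2D3, with the most counts, had 112 against 46 in WT and 20 in hNABP2 KO. None of 14 subunits and coactivators of the anaphase-promoting complex (median -0.06) and none of 20 genes of the JNK and p38 cascade (median -0.32) was 4 times as high; ANAPC11 had 19 counts against 11 and 9, and MAPK8IP3 had 18 against 42 and 26. Among 13 partners of UBE2V2 and RNF126 (median 0.00), GET4 had 45 counts against 35 and 21, UBE2N 19 against 27 and 9, and TRAF6, named after its value was seen, was 4 times as high.

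The remaining lists held a few genes past that line. Of 17 disulfide isomerases and related genes (median -0.07) 2 were, PDIA4 and ERP29, both named after their values were seen, whereas the chaperones CALR (5 against 14 and 8) and HSPA5 (9 against 30 and 19) had fewer counts. Of 14 mitochondrial proteases and chaperones (median 0.18) the chaperonin HSPD1 was, with 97 against 27 and 23, while HTRA2 had 32 against 35 and 31. The 1.67% of all genes past the line is the measure for these counts. The 2 of 17, 1 of 14 and, for the partners above, 1 of 13 lay above that share. They rest on 1 or 2 genes each, and no test was made on the lists.

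The genes most like the 8 were sought among the 170 genes (0.642% of the table) with 50 or more counts in the high library, 7 of the 8 included, by the share of a gene's counts over the 18 libraries that fell there. The median share was 58.2%, while the library held 18.4% of all counts. LOC100505841, SFR1, MAP2K7 and UBE2S had the 4 highest shares, UBE2V2 ranked 6, P4HB 12 and LONP1 134. The most alike others were SMARCB1 of the SWI/SNF remodeller (80.6%, 108 counts), the RNA-binding LSM4 (79.1%, 159 counts), the RNA polymerase III subunit POLR3G (79.1%, 68 counts), THAP7-AS1 (78.7%, 214 counts) and the coactivator NCOA5 (77.5%, 169 counts). These 5 are among 115 genes outside the 8 with over 50% of their counts there. Of 14907 genes with 10 or more counts in all, 1097 (7.36%) had their highest CPM of the 18 in the high library, as did 7 of the 8.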

How the data were processed

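The authors' table gives whole-number counts for each gene symbol in 18 run-on libraries, not normalized, and a deposited peak list or annotated peak table was used for 15 libraries. Per the file headers and layout, each deposited peak carries a fold, the ratio of its summit to the background, and −log10 p and q values. The submitters' processing notes name the hg38 build, MACS2 2.2.1, SAMtools, Bowtie2 2.3.5 and cutadapt 1.18, in no order and with no settings; the sources used here do not give the counting tool, its strand setting or the control libraries of peak calling. IgG and RNase H libraries were not analysed here.

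The 8 genes, the lists, the motifs and the tests were chosen with earlier results of these data known. CPM are counts over the library total (5272 to 164357). Intervals are exact (Clopper-Pearson, 95%), and they and the floor of 3 counts cover counting error only, since reads are not independent molecules. Counts were compared with edgeR 4.0.16 in R 4.3.3 (quasi-likelihood F test, filterByExpr, TMM, Benjamini-Hochberg over all genes tested, threshold 0.05), with DESeq2 1.42.0 and limma 3.58.1 (voom) beside it. The scripts were tested on simulated data. The 3 genotypes with NTP shared 1 model, and the effect of NTP was tested in 1 model of 18 libraries. p-values measure the spread between libraries, which may be technical, since the labels name 2 experiments for 3 repeats. Over 13447 genes and with group means removed, 9 same-number pairs correlated at 0.197 to 0.496 and 18 different-number pairs at -0.285 to 0.0103. Depth goes with the number as well: with NTP, repeat 3 libraries held 115528 to 164357 counts and the others 5883 to 19581. Removing means of 3 libraries also lowers the different-number values, so neither range shows by itself that the numbers pair the libraries. Positions, promoter windows and neighbours come from RefSeq GRCh38.p14 (26251 of 26475 symbols and all 8 genes matched; 7 promoters). Peak and gene were joined within 1 kb, and peaks overlapped at 1 bp or more.

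The genes named are the 8, the 5 most like them by share of counts, their nearest annotated neighbours and, from each list, up to 4 genes with the most counts in the other 17 libraries; any other is said to be named after its value was seen. The result of 1 list is not reported here. Alternatives were other filters, size factors and tools, the repeat number as a block, each library left out, a stricter q and a larger overlap. Added after the data were seen were the block with 10 or more counts while leaving out each library, and that filter for the 7 genes that did not pass filterByExpr.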

Additional observations from a re-analysis of the deposited data

How the results depend on the processing

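The values rest on 1 library. Called genes in hNABP1 KO against WT (0 as reported) were 16 with 10 or more counts and the replicate block. With single libraries left out of that fit they were 0 (without the high library, and without WT repeat 3) to 157 (without hNABP1 KO repeat 1), with 56 without hNABP1 KO repeat 2, 1 without WT repeat 1 and 4 without WT repeat 2; these fits were chosen after seeing the data. For NTP in hNABP1 KO (0 as reported) the block gave 5, the block with 10 or more counts 1 (lower), and leaving out single libraries of the latter 0 to 4, with 3 without hNABP1 KO repeat 2 with NTP, 4 without repeat 1 and 3 without repeat 2 with no NTP. Over single libraries left out, LONP1 ranged from -0.30 (without the high library) to 3.10 in hNABP1 KO against WT. With 10 or more counts and the block, LONP1 stayed higher without it (0.56). In that fit P4HB gave -3.78 (SE 3.74, 1 count against 0) and RNF126 -0.96 with no SE, as it has no counts in repeats 1 and 2, so neither shows a change of direction. ChIP repeat 2 promoter peaks fell from 3 to 0 at a −log10 q of 5 or more, and with 50% of the run-on peak covered overlaps fell from 7 to 4 and from 3 to 1. Other results of the contrasts and peaks kept their value within 1.5 times or their side of the threshold under 52 settings, and single genes under 83; 25 values of single genes passed the threshold only in a fit with the block. The cause of these changes was not tested. Libraries of 5272 to 19581 counts leave most genes at 0 and limit every comparison across repeats.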
